A study of Mus musculus with 5 samples.

Results

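Ctps encodes the enzyme that makes CTP from UTP, the closing step of pyrimidine nucleotide synthesis. It was followed in mouse whole colon together with 9 other enzymes of nucleotide synthesis, which were Cad, Dhodh, Umps and Ctps2 on the pyrimidine side, Ppat, Impdh1, Impdh2 and Gmps on the purine side, and Nme1, a kinase that serves both. All 10 genes were measured, by 16 of the 56605 probes on the array, and 17942 genes with a symbol were tested in all. The genes were chosen by the log2 difference between NT-3N and Control, in which Ctps was among the clearest features, together with its neighbours in the pathway. Their values in that comparison are therefore given as a description, and the limma calls and intervals among them are not read as a test.

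Whole-colon RNA was taken from wild-type mice of the strain given as C57BL/B6. The Control group held 2 arrays and the NT-3N group 3 arrays, and each array is taken as a separate mouse, since the series text speaks of 2 to 3 mice per time point and names no pooling. NT-3N is an agonist of the IL-11 receptor, described in the methods of the study as a modified human IL-11, and the colon was removed 3 hr after intravenous injection. The injected amount is 10 in the labels and in the methods alike, but in mg in the former and in μg in the latter, so the dose is not settled. The Control colons came from untreated mice, so effects of injecting and of the agonist cannot be told apart. The injected mice were 8 weeks old, and sex is not given in the sources used here. The share of probes well above background was 70.6% to 72.9% per array, with 0 saturated spots, and a single slide, scanned at 1 time, held the 5 arrays. Of 12 marker genes of colon epithelium 11 were well above background on all 5 arrays. Cdx1 was not tested, since no probe of it passed the filter on background and missing values. Socs3, a feedback inhibitor induced by cytokines of this family, lay at a log2 signal of 10.63 and 10.11 in Control and at 12.88, 13.21 and 13.14 in NT-3N, so the labelled groups differed in a known response gene.

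Cells build pyrimidines and purines along separate routes. In the pyrimidine route CAD carries out the opening steps, DHODH oxidises dihydroorotate at the mitochondrial inner membrane, UMPS completes UMP, nucleoside diphosphate kinases such as NME1 raise diphosphates to triphosphates, and CTPS or its relative CTPS2 converts UTP to CTP with nitrogen from glutamine. In the purine route PPAT commits phosphoribosyl pyrophosphate to the ring, IMPDH1 or IMPDH2 oxidises IMP and GMPS turns the product into GMP. Demand for these enzymes is known to be high in dividing cells such as those of the colonic crypt and in activated lymphocytes, and several of the genes are known targets of the transcription factor MYC.

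Sequences just before the transcription start were read for the members to show whether they share a letter pattern, since the arrays carry probes inside transcripts and no information on promoters. The windows, from RefSeq on build GRCm38.p6, cover the 250 bases before each annotated start, and 9 of the 10 members had at least 1 window, 14 in all. The pair of windows of Ctps is shown because this gene carried the large difference, and windows of Impdh2 and Nme1 are shown because they held the E-box CACGTG, the letters to which MYC and related factors bind, which is set in capitals.
Ctps, chr4:120570277-120570526, minus strand: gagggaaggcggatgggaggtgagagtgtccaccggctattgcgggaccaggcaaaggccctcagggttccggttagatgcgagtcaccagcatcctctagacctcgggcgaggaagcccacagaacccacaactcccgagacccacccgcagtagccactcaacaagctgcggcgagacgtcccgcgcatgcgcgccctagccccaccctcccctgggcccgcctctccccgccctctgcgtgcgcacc
Ctps, chr4:120569460-120569709, minus strand: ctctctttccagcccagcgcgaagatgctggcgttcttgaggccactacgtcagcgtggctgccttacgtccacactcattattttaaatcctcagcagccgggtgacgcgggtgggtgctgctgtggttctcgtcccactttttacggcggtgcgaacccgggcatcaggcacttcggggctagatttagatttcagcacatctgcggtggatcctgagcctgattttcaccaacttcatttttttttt
Impdh2, chr9:108560186-108560435, plus strand: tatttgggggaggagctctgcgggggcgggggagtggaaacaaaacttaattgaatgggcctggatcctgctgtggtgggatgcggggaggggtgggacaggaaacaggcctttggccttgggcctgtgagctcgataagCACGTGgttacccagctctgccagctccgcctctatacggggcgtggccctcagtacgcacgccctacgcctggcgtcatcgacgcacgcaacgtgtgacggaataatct
Nme1, chr11:93968273-93968522, minus strand: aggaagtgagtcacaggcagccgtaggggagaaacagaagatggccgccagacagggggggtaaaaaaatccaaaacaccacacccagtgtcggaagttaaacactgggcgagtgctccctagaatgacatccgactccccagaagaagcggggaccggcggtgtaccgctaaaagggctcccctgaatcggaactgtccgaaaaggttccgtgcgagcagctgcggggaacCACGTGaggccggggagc

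The E-box was found in 3 of the 14 windows, 1 of Impdh2 and both of Nme1, and in 6.02% of 32851 windows of all genes. The letters TTCNNNGAA, the pattern bound by STAT factors, were found in 0 of the 14 windows and in 7.02% of all. The letters TGACGTCA of the cAMP response element were found in 0 of the 14 and in 1.55% of all. Each of these patterns reads the same on both strands, and none of the matches in the members overlapped another. No match lay in either window of Ctps, which says only that these letters are not within those 250 bases.

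Ctps was the member with the large difference. Its only probe, A_51_P251357, gave a quantile-normalized log2 signal of 11.39 and 11.30 in the Control arrays and of 13.23, 13.26 and 13.30 in the NT-3N arrays. The groups did not overlap, and within each group the arrays lay close together. The Control mean was 11.35 ± 0.063 (SD, n = 2) and the NT-3N mean 13.27 ± 0.037 (SD, n = 3). The log2 difference of NT-3N minus Control was 1.92 with a standard error of 0.079, which is a 3.78-fold higher signal with a 95% interval from 3.31-fold to 4.31-fold. By size of the rise Ctps stood at rank 128 of 32917 features. In whole tissue, a change in the share of cells of a type and a change in RNA per cell cannot be told apart.

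Ctps2, the X-linked relative that catalyses the same reaction, stayed near its Control level. Its brightest probe read 11.34 and 11.29 in Control and 11.16, 11.28 and 11.40 in NT-3N. NT-3N replicates 1 and 2 lay below both Control arrays and replicate 3 above them. Its log2 difference was -0.037, with a 95% interval from -0.28 to 0.21. Relative to their own Control means, Ctps lay 1.88, 1.91 and 1.96 higher on the log2 scale in NT-3N replicates 1, 2 and 3, while Ctps2 lay at -0.16, -0.033 and 0.079. A further pair of Ctps2 probes, much dimmer at Control means of 6.80 and 6.28, differed by 0.058 and 0.083.

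**Figure D1:**
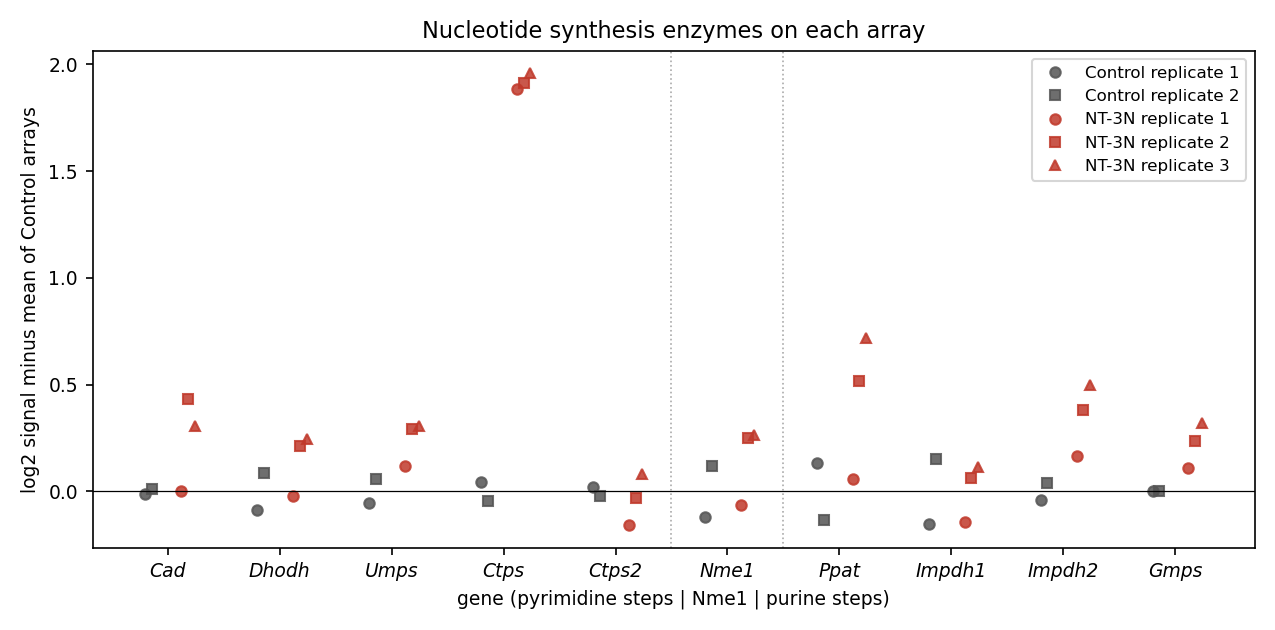
Log2 signal of the 10 genes on each of the 5 arrays, minus the gene's mean over the Control arrays (y axis), by gene (x axis), using the brightest probe. Grey points are Control and red points NT-3N, with the replicate number given by the shape. The 3 NT-3N points of Ctps lie between 1.88 and 1.96, and the highest point of any other gene is that of Ppat at 0.72.

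The other pyrimidine enzymes differed little. Cad, the trifunctional protein of the opening steps, read 10.29 and 10.31 in Control and 10.30, 10.74 and 10.61 in NT-3N. NT-3N replicate 1 lay between the Control arrays and the other NT-3N arrays above them, and the log2 difference was 0.25 with a 95% interval from -0.099 to 0.59. Dhodh, the mitochondrial enzyme, read 8.64 and 8.81 in Control and 8.70, 8.94 and 8.97 in NT-3N. These values overlapped as well, with a difference of 0.14 and an interval from -0.18 to 0.47. Umps, which completes UMP, read 11.43 and 11.54 in Control and 11.60, 11.77 and 11.79 in NT-3N. Here all NT-3N arrays lay above both Control arrays, but by a difference of 0.24 with an interval from -0.00014 to 0.48. The dimmer probe of Umps overlapped between the groups, with a difference of 0.061, and so did the dim probe of Cad, at -0.036. Nme1, the nucleoside diphosphate kinase that serves both routes, read 11.85 and 12.09 in Control and 11.91, 12.22 and 12.24 in NT-3N. Its groups overlapped, with a difference of 0.15 and an interval from -0.18 to 0.48.

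Of the purine enzymes, Ppat had the highest difference. Ppat, the committing enzyme of the ring, read 8.16 and 7.89 in Control and 8.08, 8.54 and 8.74 in NT-3N with its brightest probe. NT-3N replicate 1 lay between the Control arrays on that probe, and the difference was 0.43 with an interval from -0.089 to 0.95. On the other Ppat probe the groups did not overlap. It read 7.45 and 7.24 in Control and 7.84, 7.98 and 8.18 in NT-3N, a difference of 0.66 with an interval from 0.29 to 1.02.

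Impdh2, the form of IMP dehydrogenase known to be raised in dividing cells, read 12.97 and 13.05 in Control and 13.18, 13.39 and 13.51 in NT-3N. Its groups did not overlap on this probe or on its other probe, and the differences were 0.35, with an interval from 0.078 to 0.62, and 0.27. Impdh1, the other form, read 10.33 and 10.64 in Control and 10.34, 10.55 and 10.60 in NT-3N. All NT-3N arrays of Impdh1 lay within the Control range, with a difference of 0.011 and an interval from -0.31 to 0.34. Gmps, which makes GMP, read 8.12 on both Control arrays and 8.24, 8.36 and 8.44 in NT-3N. Its groups did not overlap, and the difference was 0.22 with an interval from -0.067 to 0.51.

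**Figure D2:**
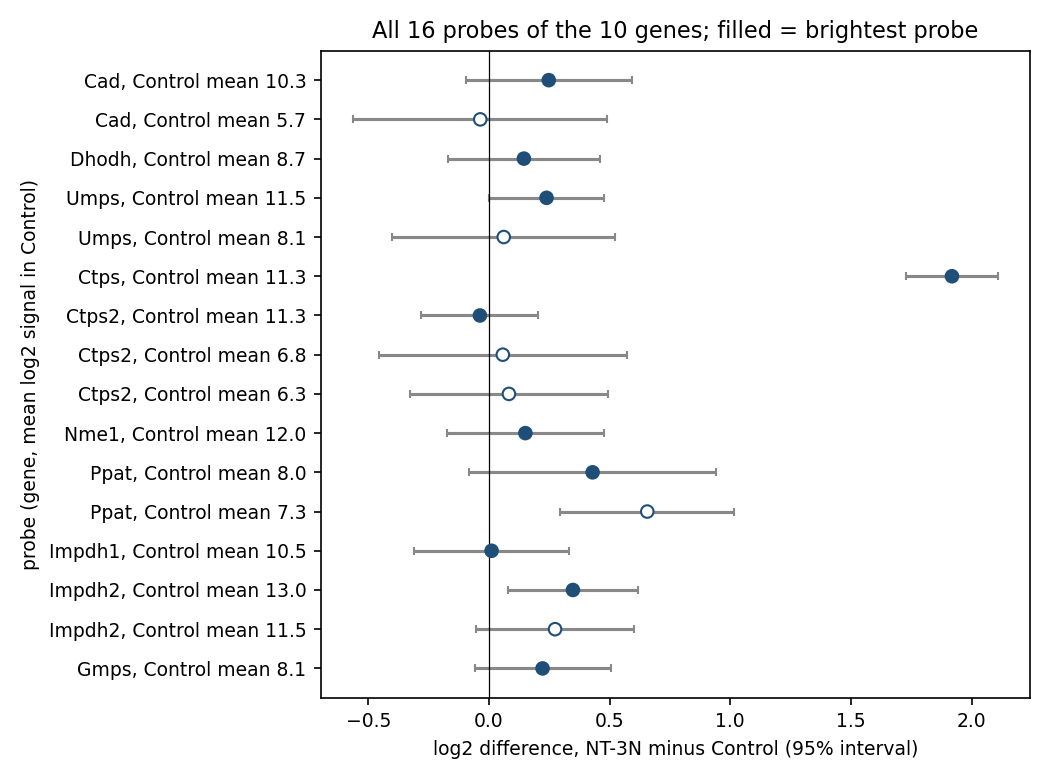
Log2 difference of NT-3N minus Control with its 95% interval from a fit of every probe (x axis) for each of the 16 probes of the 10 genes (y axis, with the mean log2 signal in Control). Filled points are the brightest probe of a gene, and open points its other probes. The probe of Ctps stands at 1.92, and the other 15 probes lie between -0.037 and 0.66.

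Counted together, 9 of the 10 genes had a difference above 0 with their brightest probe, where 46.4% of all 32917 features did. The arrays of the groups did not overlap, with NT-3N higher, for 4 genes, which were Ctps, Umps, Impdh2 and Gmps, where 13.5% of all features showed this. Ctps was the 1 gene called in limma at an adjusted p under 0.05 with NT-3N higher, and 0 were called with NT-3N lower. Over all features 0.143% passed in either direction, 0.125% higher and 0.0182% lower. Since the comparison was used to choose the genes, nothing is read from these counts. The 47 features called over the whole array became 31 without Control replicate 1, 116 without Control replicate 2, 84 without NT-3N replicate 1, 1 without NT-3N replicate 2 and 0 without NT-3N replicate 3. Ctps was among them without either Control array or NT-3N replicate 1, and was not without NT-3N replicate 2 or 3, where its log2 differences were 1.92 and 1.90. With the replicate number as a block 0 features were called, and the log2 difference of Ctps was 1.90.

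The pyrimidine and purine steps were then set side by side. The median log2 difference was 0.24 over the 5 pyrimidine genes, 0.19 over the 4 of them without Ctps, and 0.29 over the 4 purine genes. Over all features it was -0.019. Pyrimidine minus purine was thus -0.046 by medians. By class means, which Ctps weighs on, the sign was the other: NT-3N lay 0.50 above Control on the log2 scale for the pyrimidine genes and 0.25 for the purine genes, a difference of 0.25 with a pooled SD within groups of 0.062. Without Ctps the pyrimidine mean was 0.15 and the difference -0.10, with a pooled SD of 0.054. With the mean of all probes of a gene the class medians were 0.14 and 0.27. The order of the classes therefore depended on whether Ctps was counted in the mean.

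The arrays of the NT-3N group were not alike in these enzymes. NT-3N replicate 1 had the lowest signal of the NT-3N arrays for all 10 genes, and NT-3N replicate 3 the highest for 9, the exception being Cad. Among all features NT-3N replicate 1 was the lowest of the NT-3N arrays in 40.3%. The count was also 10 of 10 with 75th percentile scaling, where the share of all features was 34.6%, and with median scaling, and 9 of 10 with normexp background correction and with the mean of probes. On the log2 scale relative to Control, the mean of the 9 genes without Ctps was 0.007 in NT-3N replicate 1, 0.26 in replicate 2 and 0.32 in replicate 3. Ctps had a range of 0.073 over the NT-3N arrays, while Ppat spanned 0.66 and Cad 0.43. A gene chosen as among the clearest features tends to have a small range within groups, so nothing is read from that of Ctps. Without NT-3N replicate 1 all 10 genes were above 0 and their median was 0.29 rather than 0.23, while without NT-3N replicate 3 it was 0.19.

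**Figure D3:**
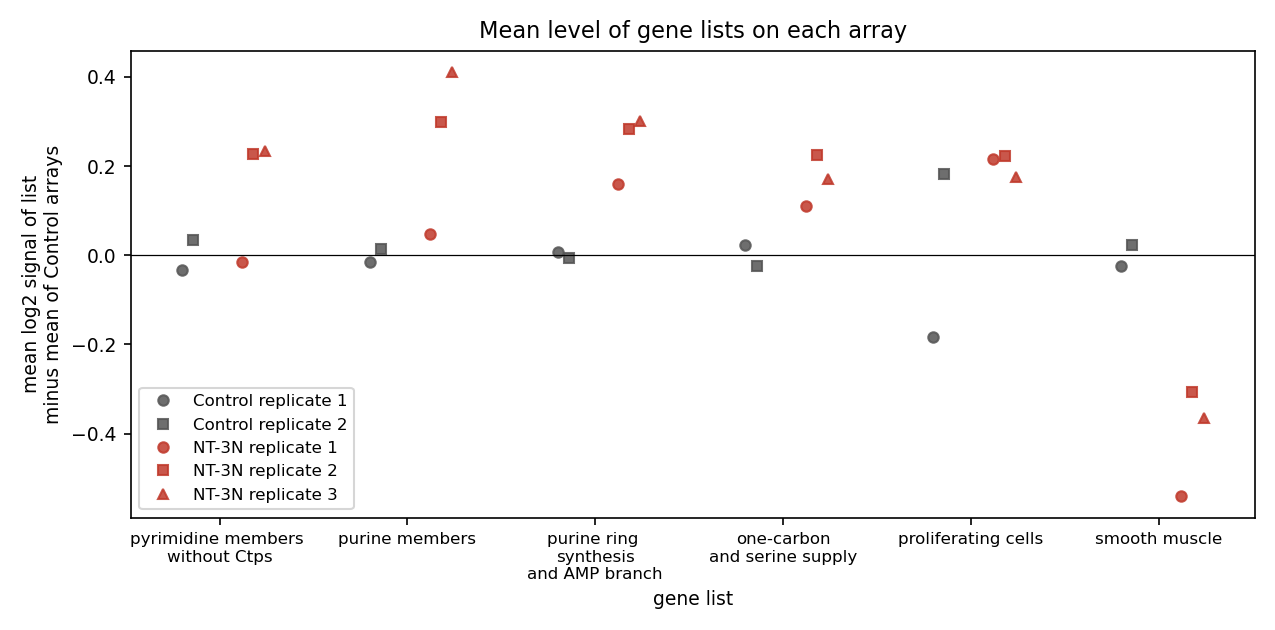
Mean log2 signal of 6 gene lists on each array, minus the mean of the Control arrays (y axis), by list (x axis). Grey points are Control and red points NT-3N, with the replicate number given by the shape. NT-3N replicate 1 lies at -0.016 for the pyrimidine genes without Ctps and at 0.048 for the purine genes, below the other NT-3N arrays, and Control replicates 1 and 2 stand apart for the proliferating cell markers, at -0.18 and 0.18.

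Markers of cell types and states moved between these arrays as well, and their part in the values above was not tested. All 12 markers of proliferating cells, such as Mki67 and Mcm3, had a difference above 0, where 46.4% of all features did. Their median was 0.17. In limma 0 of them passed an adjusted p of 0.05 with NT-3N higher, where 0.125% of all features did. At an unadjusted p under 0.05, 1 was higher, Mcm3, against 4.95% of all features. The summed signal of the 12 markers was 36680 and 45430 in the Control arrays and between 46467 and 48009 in NT-3N. All 10 smooth muscle markers were below 0, with a median of -0.29, where 17654 of all 32917 features were below 0. In limma 0 of the 10 passed an adjusted p of 0.05 with NT-3N lower, where 0.0182% of all features did. At an unadjusted p under 0.05, 5 were lower, against 4.67% of all features. The summed signal of these 10 markers was between 499386 and 516680 in Control. In NT-3N it was between 367069 in replicate 1 and 456802 in replicate 2. The summed signal of 10 markers of B cells and follicles was 5877 and 1626 in the Control arrays and between 5366 and 6570 in NT-3N. Of these markers 9 differed above 0 and 1 below, and Ms4a1 had the highest difference at 3.65. Ms4a1 read 4.95 and 6.53 in Control and 9.54, 9.13 and 9.51 in NT-3N. The 9 tested markers of T cells were not ordered by group, at 7742 and 8729 in Control and between 6718 and 9257 in NT-3N. The epithelial markers summed to between 953792 and 960272 in Control and between 864042 and 996429 in NT-3N. The 10 fibroblast markers had a median log2 difference of 0.0035, with 5 above 0 and 5 below. Pdpn was the highest at 1.49, with 10.33 and 10.66 in Control and 11.67, 12.13 and 12.16 in NT-3N. For all 10 fibroblast markers NT-3N replicate 1 was the lowest of the NT-3N arrays, as it was for the enzymes and for 40.3% of all features. Of 10 neutrophil markers 6 were tested. S100a8 and S100a9 were not well above background on either Control array and were on all 3 NT-3N arrays. The S100a9 signal was 1.56 and 1.58 in Control and 8.58, 6.23 and 6.65 in NT-3N. That of S100a8 was 2.57 and 2.51 in Control and 6.21, 4.28 and 5.15 in NT-3N. Both passed the filter through the NT-3N arrays alone, so no p is given for them. Elsewhere in the list Csf3r differed by -0.16, Elane by -0.18, Camp by 0.19 and Mmp8 by 0.50, the last with overlap of the groups.

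Enzymes around the members were counted in lists taken from textbook pathways. Of 97 such genes 96 were tested, and no probe of Ampd1 passed the filter. None of the 96 passed an adjusted p of 0.05 in limma, a count of 0, where 0.143% of all features did. At an unadjusted p under 0.05, 12 were higher and 4 lower, against 4.95% higher and 4.67% lower over all features. The local-pooled-error test called 1 higher, Ampd3, and 1 lower, Cmpk2, where it called 348 of all 32917 features. The brightest Ampd3 probe read 1.32 on Control replicate 1, where it was not well above background, and 11.59 on Control replicate 2, against 11.84 to 11.94 in NT-3N. Its other probe read 7.65 and 7.42 in Control and 7.69 to 7.82 in NT-3N, so no fold is given for Ampd3. Without Control replicate 2 limma called it as well.

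The list nearest to the purine members, which makes the purine ring and the AMP branch, had 8 of 9 genes above 0 and a median log2 difference of 0.23. The arrays of the groups did not overlap for 7 of the 9, all with NT-3N higher, where 13.5% of all features showed this. Prps1, which makes phosphoribosyl pyrophosphate, read 11.44 and 11.61 in Control and 11.81, 11.97 and 12.03 in NT-3N, with a difference of 0.41 and an adjusted p of 0.32. Paics, which acts later in the ring and whose RefSeq start lies close to that of Ppat on the other strand, read 11.71 and 11.68 in Control and 11.83, 11.98 and 12.09 in NT-3N, with a difference of 0.27 and an adjusted p of 0.48. The highest difference of the list was that of Adssl1, the muscle form of the enzyme that leads to AMP, at 0.51 with an adjusted p of 0.47. The lowest was that of Adsl at -0.032.

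Serine and folate genes, which supply carbon units to purines and thymidylate, had 11 of 12 genes above 0 and a median of 0.13. Shmt1, the cytosolic serine hydroxymethyltransferase, read 8.82 and 8.86 in Control and 9.33, 9.45 and 9.57 in NT-3N. Its groups did not overlap, with a difference of 0.61 and an adjusted p of 0.18, and Aldh1l2 was the lowest of the list at -0.27. Deoxynucleotide genes had 8 of 9 above 0 and a median of 0.15. Dctd, which deaminates dCMP, stood out with a difference of 0.90 and an adjusted p of 0.27. Its signal was dim, at 4.64 and 4.86 in Control and 5.54, 5.82 and 5.59 in NT-3N.

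The lists of kinases and salvage enzymes were balanced. Of 14 nucleotide kinases 7 were above 0 and 7 below, with a median of 0.0015. Ak4, a mitochondrial adenylate kinase, had the highest difference at 0.43. Cmpk2, a kinase known as an interferon-stimulated gene, had the lowest at -1.33 with an adjusted p of 0.48, and its NT-3N arrays ranged from 8.34 to 10.08. Nme2, which lies beside Nme1 and works alike, differed by 0.24, with values of 14.83 and 14.91 in Control and 14.86, 15.23 and 15.24 in NT-3N. Of 14 salvage genes 6 were above 0 and 8 below, with a median of -0.054. The highest was Uck2, a uridine-cytidine kinase, at 0.31 with an adjusted p of 0.48, and the lowest its relative Uck1 at -0.25. Hprt, the purine salvage enzyme often used as a reference gene, differed by 0.026.

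In nucleotide breakdown and interconversion 12 of 17 tested genes were above 0 and the median was 0.10. Gda, the guanine deaminase, was the highest of those well above background on all arrays. It read 13.38 and 13.34 in Control and 14.41, 13.99 and 13.92 in NT-3N, a difference of 0.74 with an adjusted p of 0.21, and Nt5e was the lowest of them at -0.15. Among 7 nucleoside transporters the median was 0.027, from -0.32 for Slc28a1 to 0.65 for Slc28a3. Among 6 enzymes that use CTP to make phospholipids or sialic acid the median was -0.11, and of those well above background on all arrays Cds1 was highest at 0.17 and Cds2 lowest at -0.17. Within the MYC network, 3 of 8 genes were above 0. Myc itself read 8.51 and 8.59 in Control and 9.13, 9.31 and 9.61 in NT-3N, a difference of 0.80 with a standard error of 0.16 and an adjusted p of 0.20. NT-3N replicate 1 was the lowest of the NT-3N arrays for Myc too, and Mycn had the lowest difference of the network at -0.68.

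**Figure D4:**
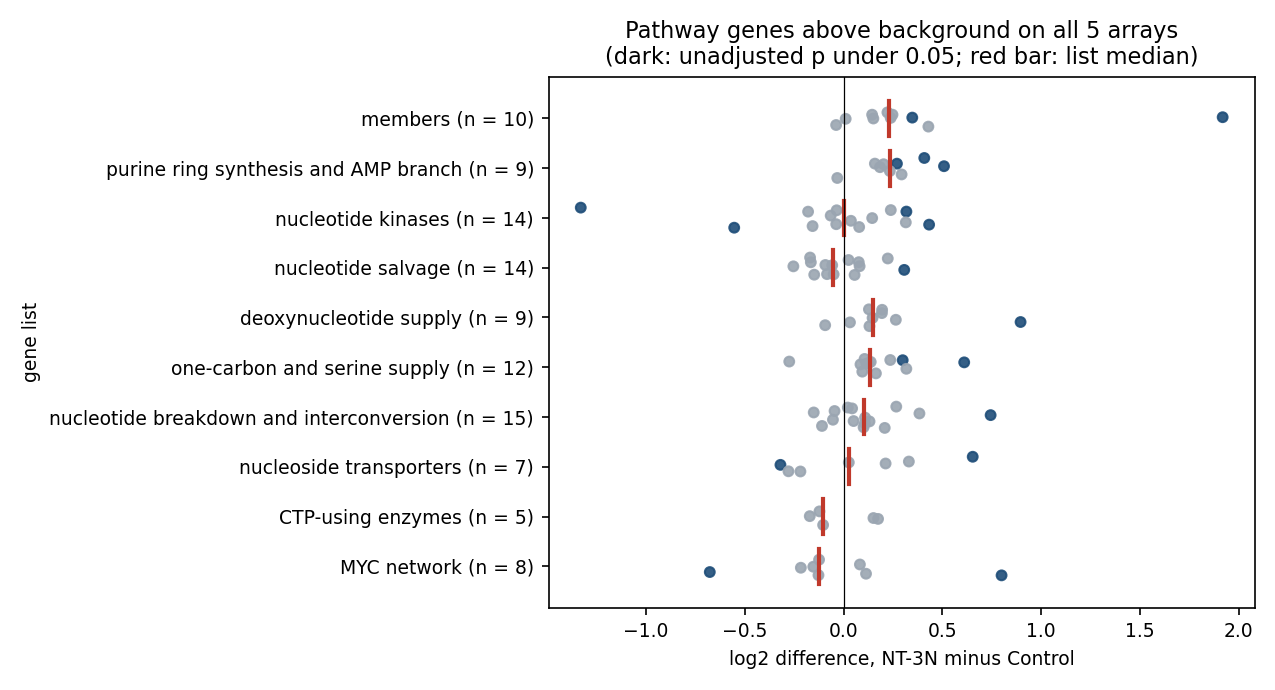
Log2 difference of NT-3N minus Control (x axis) for the 10 members and for the genes of 9 pathway lists that were well above background on all 5 arrays (y axis, with their number). Each point is a gene, dark where its unadjusted p was under 0.05, and the red bar is the median of the plotted genes. Ctps at 1.92 is the point farthest to the right, Dctd at 0.90 the next, and Cmpk2 at -1.33 the farthest to the left.

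The neighbours of Ctps on chromosome 4 did not share its pattern. Of the 3 nearest tested protein-coding genes on each side in RefSeq, Scmh1 and Cited4 were the closest to it. Untested genes were left out of this order. Scmh1, a polycomb group gene, differed by 0.31 with an adjusted p of 0.56, and Cited4 by -0.30 with an adjusted p of 0.65. Nfyc, a subunit of the CCAAT-binding factor NF-Y, and Exo5 differed by 0.0099 and 0.055. Foxo6 and Edn2, which lie beyond Scmh1, were lower in NT-3N without overlap of the groups, where 14.8% of all features were. Foxo6 differed by -0.86 and Edn2 by -0.68, with adjusted p of 0.34 and 0.23 in limma.

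The genes whose pattern over the 5 arrays was most like that of Ctps lay elsewhere in function. Likeness was measured as the root mean square difference between the log2 values of 2 genes after centring each on its own mean. A smaller value means more alike. Over 16733 named genes well above background on all arrays the median of this difference from Ctps was 0.96. The closest was Lbp, which encodes the lipopolysaccharide binding protein, at 0.084. It was followed by Gfap, a glial filament gene, at 0.098, Ifitm1, an interferon-inducible membrane protein gene, at 0.10, Kcne4, a potassium channel subunit gene, at 0.11, and Ch25h, the cholesterol 25-hydroxylase gene, at 0.12. Their log2 differences were between 1.77 for Ifitm1 and 2.05 for Ch25h. The measure mostly selects genes with a difference between the groups like that of Ctps. The list thus largely restates the comparison by which Ctps was chosen. None of the 5 belongs to the members or the pathway lists.

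**Figure D5:**
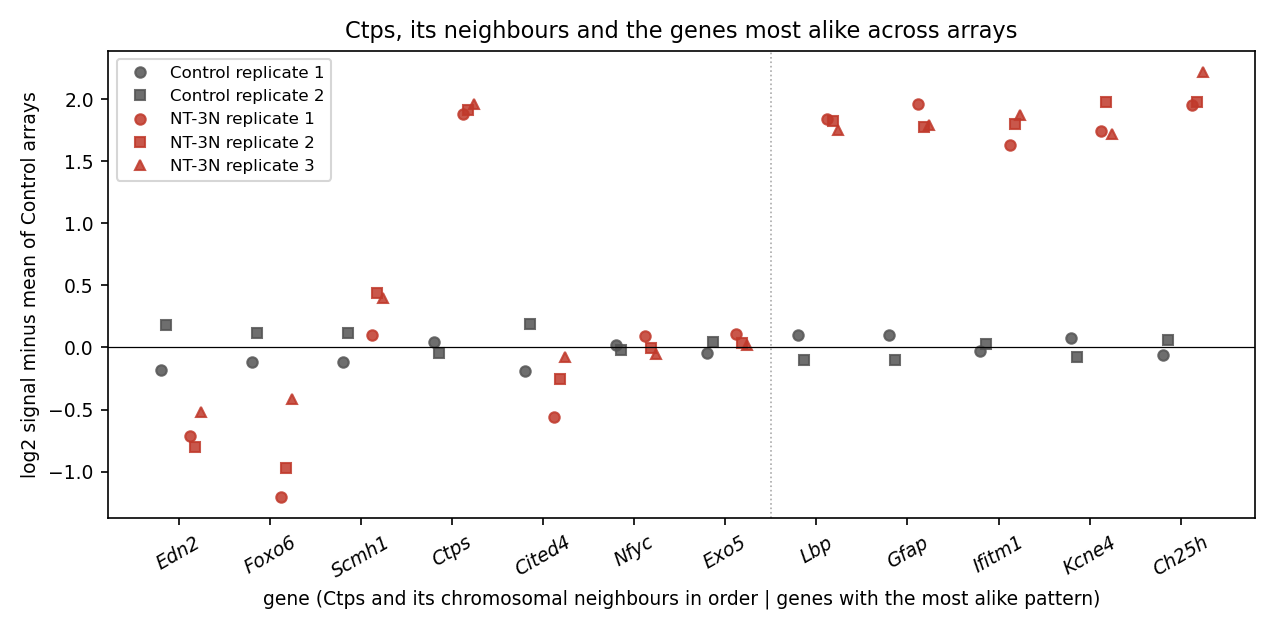
Log2 signal on each array minus the gene's mean over the Control arrays (y axis) for Ctps and the 3 nearest tested protein-coding genes on each side, in chromosomal order, and for the 5 genes with the most alike pattern (x axis). Grey points are Control and red points NT-3N, with the replicate number given by the shape. The NT-3N points of Ctps lie at 1.88 to 1.96 between neighbours whose differences run from -0.86 to 0.31.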

How the data were processed

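Cy3-labelled RNA of each sample was hybridised to a single-colour Agilent mouse array. The authors extracted spots with Feature Extraction 11.0.1.1, and the deposited scanner files give a background-subtracted, detrended signal intensity that was not scaled between arrays, with spot and local background medians and flags. The authors also deposited log2 values for 37380 probes, quantile-normalized, which correlated at 0.99998 or more with the values used here on each array and served as an alternative.

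Control spots and outlier spots (69 to 184 of 59305 per array) were left out. The processed signal was log2-transformed, averaged per probe and quantile-normalized. Probes were kept that stood well above background on 2 or more arrays and had values on both Control and at least 2 NT-3N arrays. Accessions matched a RefSeq symbol (GRCm38.p6) for 32994 of 56605 probes, and the remaining ones kept the label of the array file. The brightest probe stood for a gene, which left 32917 features, and intervals of other probes came from a fit of every probe. The array design names another build than RefSeq, so RefSeq was used for names, promoter windows and gene order only.

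The comparison used limma 3.58.1 under R 4.3.3 (lmFit, eBayes with an intensity trend, two-sided, Benjamini-Hochberg over all features, threshold 0.05). A local-pooled-error test, the one named in the study's methods, was an alternative. Both were tested on simulated data of 32910 features for NT-3N against Control. The simulated spreads were drawn from the variance model that limma had fitted, with independent noise, so limma's assumptions held by construction. In the simulated data limma found 32.7% of 2-fold and 71.3% of 4-fold changes, with 5.44% of its calls false. The local-pooled-error test found 43.7% and 82.0%, with 52.4% false. These shares do not rank the tests on the real arrays. With 10 ways to divide 5 arrays in this manner, the smallest p of an exact permutation test on 1 gene would be 0.1. P-values measure only the spread between these arrays, whose number limits the precision of every value.

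The members and lists were chosen with earlier results of these data known. Named outside the members were genes with an adjusted p under 0.05, the highest and lowest difference of each pathway list among genes well above background on all arrays, the 5 genes most like Ctps, and Myc and Socs3. A gene that this rule names is not reported here. Ampd3, Cdx1, Ampd1, S100a8, S100a9, Csf3r, Elane, Camp, Mmp8, Prps1, Paics, Nme2, Hprt, Mki67, Mcm3, Pdpn, Ms4a1 and the neighbours of Ctps were named after their values were seen.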

Additional observations from a re-analysis of the deposited data

How the results depend on the processing

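Alternatives covered scaling, background correction, the deposited values, the variance model, the dim-probe filter, weights for arrays, the replicate block, the local-pooled-error test, how probes of a gene are joined, and leaving out each array. A slide or scan block was not fitted, with 1 of each. With 1 Control array left out, the remaining one takes its spread from NT-3N. Normexp used spot medians.

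Ctps kept its direction in all 17 alternatives, with log2 differences from 1.87 to 1.96. Its call was lost without the intensity trend (1.92) and with the replicate block (1.90), and members called were then 0. Without each array in turn its difference ranged from 1.87 to 1.96 and the members called from 0 to 1, with 0 without NT-3N replicate 2 or 3. The other 13 alternatives called Ctps alone. Cad, Dhodh, Umps, Nme1, Ppat, Impdh2 and Gmps stayed above 0 and uncalled in all 17. Ctps2 turned to 0.011 with median scaling and 0.034 with the mean of probes, and ranged from -0.095 to 0.023 without each array, above 0 without NT-3N replicate 1. Impdh1 turned to -0.040 with the replicate block and ranged from -0.14 to 0.16 without each array, below 0 without Control replicate 1, NT-3N replicate 2 or 3. Pyrimidine minus purine was -0.12 with the mean of probes and ranged from -0.12 without NT-3N replicate 2 to 0.00084 without Control replicate 2. Pathway genes called were 1 higher and 1 lower with the local-pooled-error test, and from 0 to 1 higher without each array, the 1 being Ampd3 without Control replicate 2. The cause was not tested, except that the lone Control value of Ampd3 was then a spot not well above background.

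Whether arrays pair by replicate number could not be decided. Across features, the deviations of same-numbered arrays had r = 0.13 (number 1) and 0.036 (number 2), with only 2 pairs. The deviations of the 2 Control arrays mirror each other, so these values are not separate checks. The replicate block left 0 features called by limma (2488 at unadjusted p under 0.05). All features called numbered 47 in the settings used above, 2 without a filter or without the trend, 170 with array weights, from 0 without NT-3N replicate 3 to 116 without Control replicate 2 when an array was left out, and 348 with the local-pooled-error test, where 1260 had an unadjusted p under 0.05.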
